A study of Drosophila melanogaster with 12 samples.

Results

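The genes described here encode the proteins of the mitochondrial ribosome of Drosophila melanogaster. They are the rows of the gene count table whose FlyBase or RefSeq symbol begins with mRpL (large subunit) or mRpS (small subunit). This gave 73 of the 17561 genes in the table, 47 named for the large and 26 for the small subunit. They lie on all major chromosome arms, with 12 on 2L, 12 on 2R, 17 on 3L, 21 on 3R and 11 on X.

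Mitochondria carry their own ribosomes, which translate the few proteins encoded by mitochondrial DNA, all of them parts of the respiratory chain and the ATP synthase. The ribosomal RNAs come from the mitochondrial genome, but every ribosomal protein is encoded in the nucleus, made in the cytosol and imported. The protein set mixes families shared with bacteria and proteins found only in mitochondria, and mutations of single genes of this set are known to delay growth in flies.

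Poly(A) RNA of whole embryos aged 20 to 24 h was sequenced in 12 libraries, 3 in each of 4 groups. The control group, called WT, carried the elav[e5] allele over the FM7 balancer per the labels, whereas the column headers name elav[null] over FM7. The ELAV protein binds RNA in neurons and controls splicing and the choice of poly(A) sites, and a close relative is encoded by fne. The mutant groups were elav[null], the double mutant elav[null] fne[null], called the double null below, and elav[WDd], called WDd, an allele that the labels do not describe further. Embryos without the GFP of the FM7 KrGFP balancer were taken as mutants, so that the control embryos carry a balancer chromosome and the mutants do not. Whether the 3 libraries within each group are independent embryo collections is not given in the labels, so p-values reflect the spread among these samples alone, which may be technical.

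Library totals ran from 22491041 to 97043662 counts, and a count of 3 corresponded to 0.0328 to 0.139 CPM (counts divided by TMM-scaled library totals), a limit that covers counting error only. The targeted gene followed its labels: elav stood at 68.6 to 160.5 CPM in WT, at 4.0 to 6.3 CPM in both null groups and at 145.5 to 191.2 CPM in WDd. fne stood at 173.2 and 242.7 CPM in elav null replicates 1 and 2, but at 36.2 CPM in replicate 3 of that label, near the 19.6 to 30.6 CPM of the double null. That library also had the fewest counts and, after thinning to equal depth, the fewest genes detected (10523, against 11557 to 15571 in the other libraries), and results that rest on it are given with and without it. Its neighbours at the low end were double null replicate 2 with 11557 genes and elav null replicate 1 with 11874.

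Transcripts of the mitochondrial ribosomal proteins were lower in both null groups than in WT, with the lowest group mean in the double null. The difference between the null groups is tested further below. The 73 genes together took 0.265%, 0.230% and 0.156% of all counts in WT replicates 1 to 3. The corresponding shares were 0.171%, 0.135% and 0.0979% for elav null, 0.108%, 0.101% and 0.107% for the double null, with WDd at 0.206%, 0.162% and 0.191%. All double null libraries lay below all WT libraries, while elav null replicate 1 lay above WT replicate 3, so that those groups overlapped. The lowest single library was the one labelled elav null replicate 3. In whole embryos, fewer cells of a type and less RNA per cell cannot be told apart.

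On the CPM scale the summed level was 2241 ± 606 in WT (SD, n = 3), 1921 ± 282 in WDd, 1319 ± 298 for elav null and 1010 ± 50.3 for the double null. The elav null, double null and WDd means were thus 58.9%, 45.0% and 85.7% of WT. The elav null mean includes replicate 3: its libraries stood at 1618, 1318 and 1022 CPM in replicates 1 to 3. Both subunits were lower in the null groups: the large subunit genes stood at 58.5%, 43.8% and 85.4% of WT and the small subunit genes at 59.5%, 47.4% and 86.2%. The ratio of large to small subunit counts was 1.79 to 1.87 in WT, 1.76 to 1.87 in WDd, 1.73 to 1.95 for elav null and 1.61 to 1.75 for the double null. Every double null library lay below every WT and WDd library in this ratio, and the 1.95 came from elav null replicate 3. The ratio is a description, with no test.

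The libraries of WT differed among themselves in the same direction for nearly every gene. WT replicate 1 was the highest of its group for 68 of the 72 genes tested and WT replicate 3 the lowest for 71. In WDd, replicate 2 was the lowest for 71 genes. The proteins of the cytosolic ribosome moved the same way in those libraries, with summed levels of 182279, 134968 and 98574 CPM in WT replicates 1 to 3 and 153276, 105945 and 137114 CPM in WDd.

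Set against the cytosolic ribosomal proteins, the spread within WT was therefore smaller. The mitochondrial ribosomal protein genes had 1.54%, 1.72% and 1.62% of the counts of the 93 cytosolic ribosomal protein genes in WT, and 1.4%, 1.51% and 1.47% in WDd. The shares were 0.993%, 0.937% and 0.624% for elav null and 0.634%, 0.630% and 0.624% for the double null. On this scale no null library reached a WT or WDd library, and the library labelled elav null replicate 3 lay among the double null libraries. The WDd libraries lay just below the WT libraries without overlap. This ratio was chosen after the values were seen and is given as a description, with no test.

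**Figure D1:**
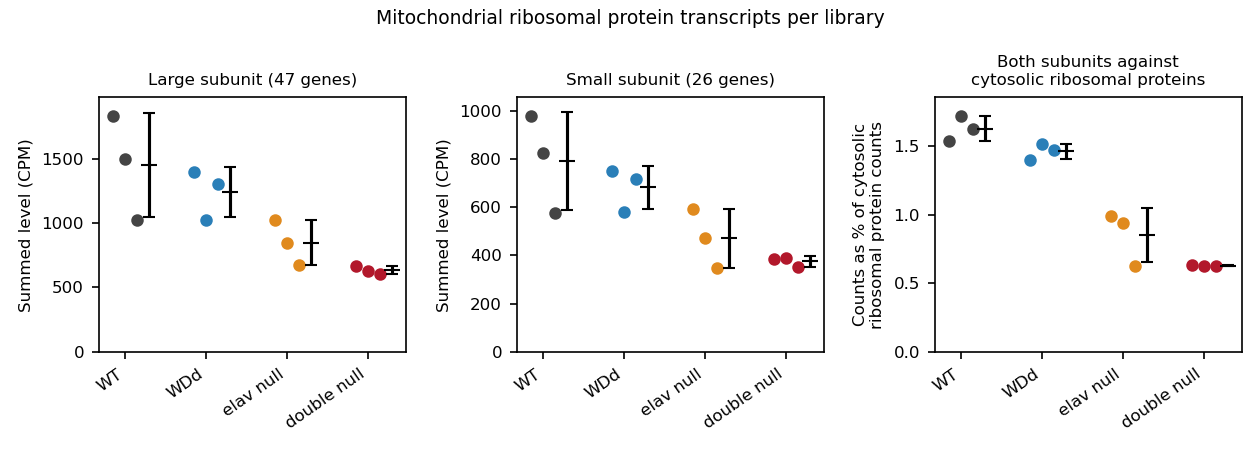
Summed TMM-scaled level (CPM) of the large subunit genes (left) and small subunit genes (middle), and the counts of both as a percentage of cytosolic ribosomal protein counts (right). Each point is a library and the black mark is the mean ± SD of 3 libraries. In the right panel WT spans 1.54% to 1.72%, WDd 1.4% to 1.51%, elav null 0.624% to 0.993% and the double null 0.624% to 0.634%.

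Of the 73 genes, 72 passed the filter on low counts and were tested with the quasi-likelihood test of edgeR, in a model of all 12 libraries with p-values adjusted by the Benjamini-Hochberg method over 14031 genes. Genes with an adjusted p under 0.05 are described as called. The exception was mRpL53, with 0 counts in every library. Exons of AGO1 and CG33155 overlap its exons, and at least 1 of these genes covers all 829 bases. The counting may therefore not have been able to assign reads to mRpL53. In all, 43 of the 73 genes share exonic bases with another gene, and reads from such stretches could not be assigned with certainty, since the strand setting of the counting is not given.

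In elav null against WT, 31 of 72 mitochondrial ribosomal protein genes fell and 0 rose, while 11.7% of all tested genes fell and 5.99% rose. The median log2 fold change of the members was -0.93, a 1.90-fold lower level, against -0.11 for all tested genes, and 70 of 72 members had a negative value. For 39 members all elav null libraries lay below all WT libraries, against 21% of all tested genes. The count of members that fell was 25 without elav null replicate 3, 20 without elav null replicate 2, 11 and 12 without WT replicate 1 or 2, and 40 without WT replicate 3. The shares of all genes that fell in those fits were 11.1%, 10.6%, 8.38%, 7.73% and 10.1%, in the same order. The count of members was 10 when the fit held only the 6 libraries compared. The share of all genes in that fit is not given here, so this count has no background beside it.

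In the double null against WT, 52 of 72 members fell and 0 rose, while 14.7% of all tested genes fell and 6.68% rose. The median log2 fold change was -1.35, a 2.55-fold lower level, against -0.03 for all tested genes, and all 72 members tested had a negative value. For 61 members the groups did not overlap, against 25.4% of all tested genes. Without WT replicate 1 or 2, 36 and 37 members fell, without double null replicate 1, 2 or 3, 37, 48 and 38 fell, and without WT replicate 3, 61 fell. In those fits 11.5%, 10.3%, 9.91%, 11.3%, 10% and 13.2% of all genes fell, in the same order. Without elav null replicate 3 in the model 62 members fell, beside 17.1% of all genes. Without the 3 libraries lowest in genes detected 59 members fell, with the share of all genes in that fit not given here.

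In WDd against WT, 0 of 72 members were called, as were 0.135% (lower) and 0.0641% (higher) of all tested genes. At an unadjusted p under 0.05 the count was also 0, and DESeq2 called 0. The log2 fold changes of the members ran from -0.46 to 0.13 with a median of -0.25, against -0.03 for all tested genes, and 69 of 72 were negative. The groups did not overlap for 1 member, mRpL3, against 7.6% of all tested genes lower in this way. The median rested on WT replicate 1: it was -0.01 without that library and -0.46 without WT replicate 3, and without WDd replicate 2 it was -0.09.

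The comparisons with WT share the same WT libraries, so their likeness is not evidence of its own. Of the members, 31 were called lower in both null groups, 21 in the double null only, 0 in elav null only and 20 in neither. Being called in the double null and not in elav null does not show a difference between them, and the direct test is given below. In elav null, 11 members were called in each of the 6 fits that left out 1 library: mRpL3, mRpL14, mRpL15, mRpL17, mRpL20, mRpL30, mRpL50, mRpS11, mRpS17, mRpS23 and mRpS30. The other 20 lost the call without at least 1 library. In the double null, 32 of 52 were called in each of 7 such fits. The order WT, WDd, elav null, double null from highest to lowest mean held for 55 of 72 members.

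**Figure D2:**
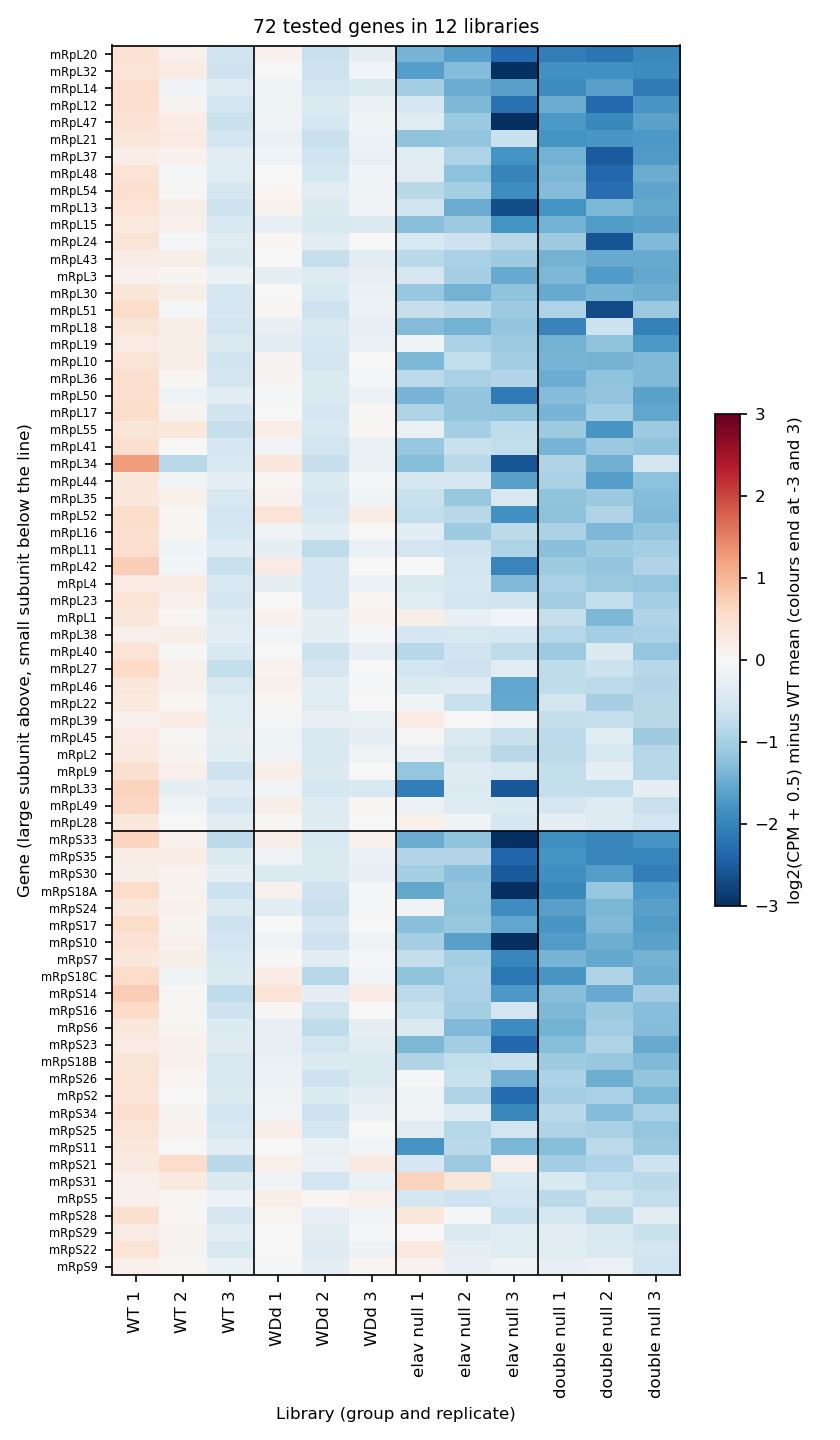
Level of each of the 72 tested genes in each library, as log2(CPM + 0.5) minus the mean of the WT libraries, with large subunit genes above and small subunit genes below the horizontal line. Blue is lower and red higher than the WT mean. The double null columns are blue for nearly all genes, elav null replicate 3 is the most uneven column, and WT replicate 3 and WDd replicate 2 are paler blue throughout.

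Among large subunit proteins, 19 of 46 fell in elav null, while 36 of 46 fell in the double null, with median log2 fold changes of -0.93 and -1.38. Among small subunit proteins, 12 of 26 and 16 of 26 fell, with medians of -0.94 and -1.28. The assignment follows the symbols. In mammals, the proteins named S30 and S18A were located in the large subunit. Of the members of families shared with bacteria, 21 of 45 and 33 of 45 fell, and of those found only in mitochondria, 10 of 27 and 19 of 27. By chromosome arm, the median ran from -1.0 to -0.80 for elav null and from -1.39 to -1.24 for the double null, the X chromosome included.

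The large subunit gene mRpL20 (CG11258, chromosome 3L, 13017149 to 13017867, minus strand, dm6) encodes a relative of bacterial L20, an early-binding assembly protein. Its level was 37.1, 30.6 and 18.0 CPM in WT, 10.2, 8.3 and 5.1 CPM for elav null, 6.1, 5.5 and 6.8 CPM for the double null, with WDd at 29.8, 17.1 and 22.3 CPM. Every null library lay below every WT and WDd library, and WDd overlapped WT. The log2 fold change against WT was -1.85 ± 0.33 (SE) for elav null and -2.22 ± 0.33 for the double null, with adjusted p in edgeR of 0.00131 and 0.000299, that is 3.62-fold and 4.66-fold lower. In WDd it was -0.31 ± 0.32 and did not pass the test.

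mRpL14 (CG14048, chromosome X, 2343997 to 2344649), whose bacterial counterpart sits where the subunits meet, stood at 38.0, 24.7 and 20.1 CPM in WT and at 12.8, 9.2 and 8.2 CPM in elav null. It was at 6.9, 8.2 and 5.7 CPM in the double null, with WDd at 24.2, 18.1 and 19.5 CPM. Both null groups lay below WT without overlap, by -1.46 ± 0.28 (adjusted p in edgeR 0.00244) and -1.99 ± 0.28 (0.000221) on the log2 scale. mRpL15 and mRpL30, both of bacterial families, were also lower in both null groups: mRpL15 went from 32.5 ± 8.27 CPM in WT (SD, n = 3) to 12.1 ± 2.99 for elav null and 10.4 ± 1.07 for the double null, and mRpL30 from 42.8 ± 12.8 to 17.2 ± 1.76 and 14.7 ± 0.727. Their WDd means, 24.4 ± 1.91 and 35.6 ± 5.49 CPM, were not called different from WT.

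mRpL50 and mRpL43, both found only in mitochondria, were also among the members with the smallest adjusted p. mRpL50 stood at 29.3, 18.5 and 16.2 CPM in WT, 7.6, 8.8 and 4.4 CPM for elav null, 8.1, 8.8 and 6.4 CPM for the double null, with WDd at 19.8, 15.1 and 18.1 CPM. Both null groups lay below WT and WDd without overlap and overlapped each other (log2 fold change against WT -1.62 ± 0.31 and -1.45 ± 0.31, adjusted p in edgeR 0.00222 and 0.00352). mRpL43 stood at 26.5, 25.6 and 16.9 CPM in WT, 12.7, 11.3 and 10.5 CPM for elav null, 8.2, 7.6 and 7.6 CPM for the double null, with WDd at 22.5, 13.8 and 18.1 CPM. Its null groups formed steps below WT without overlap (-1.0 ± 0.24 and -1.56 ± 0.25, adjusted p in edgeR 0.0117 and 0.000466).

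The stalk proteins of the large subunit recruit translation factors and guide the departing tRNA. mRpL12, the flexible stalk protein that binds the factors, stood at 80.8, 60.6 and 38.2 CPM in WT, 39.5, 22.3 and 11.7 CPM for elav null, 20.2, 10.9 and 16.6 CPM for the double null, with WDd at 52.1, 42.9 and 50.2 CPM. The double null lay below WT without overlap (log2 fold change -1.92 ± 0.39, adjusted p in edgeR 0.00274). elav null replicate 1 lay above WT replicate 3, although the gene was called lower there too (-1.28 ± 0.38, 0.0328). The elav null call was lost without WT replicate 1 or 2 and without elav null replicate 2 or 3, with adjusted p in edgeR of up to 0.133. mRpL10, the stalk base that carries mRpL12, fell in both null groups, by 1.1 and 1.48 on the log2 scale, and lost the elav null call in 3 of 6 fits without 1 library.

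mRpL1, the protein of the opposite stalk, stood at 67.2, 54.3 and 40.2 CPM in WT, 59.5, 44.6 and 50.0 CPM for elav null and 32.6, 20.4 and 28.0 CPM for the double null, with WDd at 57.4, 44.0 and 56.4 CPM. elav null overlapped WT (log2 fold change -0.07 ± 0.22), and the double null lay below every other library (-1.0 ± 0.23 against WT, adjusted p in edgeR 0.00581). The test of the double null against elav null gave -0.93 ± 0.23 with an adjusted p of 0.0983 in edgeR, which did not pass. Without elav null replicate 3 it gave -0.94 ± 0.25, with an adjusted p of 0.0386. Over the 4 stalk genes, 2 fell in elav null, while 4 fell in the double null, beside 11.7% and 14.7% of all tested genes.

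The 4 proteins that build the catalytic core are mRpL2, mRpL3, mRpL4 and mRpL16. In the double null 4 fell, beside 14.7% of all tested genes, while 1 fell in elav null, beside 11.7%. mRpL3 was that gene, with 50.4, 49.5 and 40.0 CPM in WT, 32.4, 22.5 and 16.1 CPM for elav null, 17.9, 14.0 and 15.8 CPM for the double null, with WDd at 38.4, 35.5 and 39.1 CPM. All mutant libraries lay below all WT libraries, but the WDd difference did not pass the test (-0.31 ± 0.23). mRpL2, which binds at the peptidyl transferase centre, had the smallest difference of the 4 in the double null, -0.73 ± 0.22 (adjusted p in edgeR 0.0319), and lost its call in 4 of 7 fits without 1 library.

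Around the exit of the nascent chain, 1 of 7 genes fell in elav null, while 6 of 7 fell in the double null, with medians of -0.70 and -1.31. The elav null count is 14.3% of the list, near the 11.7% of all tested genes that fell. In the double null it is 85.7%, beside 14.7%. mRpL17 was the gene called in both, at 30.0 ± 11.2 CPM in WT (SD, n = 3), 13.0 ± 1.55 for elav null and 11.3 ± 2.27 for the double null. mRpL45, known in mammals for tying the ribosome to the inner membrane, stood at 60.5 ± 10.9, 47.7 ± 12.3 and 36.3 ± 9.38 CPM and was called in the double null but not in elav null. That call was lost in 4 of 7 fits without 1 library. mRpL22, which lines the tunnel, was not called in either group. In the central protuberance, 2 of 6 genes fell in elav null, while 4 of 6 fell in the double null, mRpL18 and mRpL38 in both. mRpL18 lost its elav null call in 4 of 6 fits without 1 library and its double null call in 2 of 7.

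mRpL38, of the central protuberance, stood at 49.9, 51.1 and 35.8 CPM in WT, 31.4, 32.0 and 31.0 CPM for elav null and 24.7, 21.8 and 22.5 CPM for the double null. The 3 groups formed steps without overlap, and WDd, at 42.8, 36.4 and 44.3 CPM, lay within the range of WT. The differences from WT were -0.53 ± 0.17 (adjusted p in edgeR 0.045) and -0.99 ± 0.17 (0.000948). The elav null call was lost in 5 of 6 fits without 1 library, all but the one without WT replicate 3, with adjusted p in edgeR of up to 0.198. The double null call was kept in all 7.

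In the small subunit, 4 of 8 head proteins fell in each null group, beside 11.7% (elav null) and 14.7% (double null) of all tested genes. They were mRpS7, mRpS14, mRpS33 and mRpS35 in each group. mRpS33, a protein specific to mitochondrial ribosomes, stood at 25.2, 17.5 and 9.0 CPM in WT, 5.3, 6.6 and 1.2 CPM for elav null, 4.1, 3.7 and 4.3 CPM for the double null, with WDd at 18.0, 11.4 and 17.4 CPM. Every null library lay below every WT and WDd library. The fold changes were 3.91-fold and 4.27-fold lower, with adjusted p in edgeR of 0.0166 and 0.00946. Without WT replicate 1 or 2 the elav null calls of mRpS7 and mRpS33 were lost, with adjusted p in edgeR of up to 0.075 for mRpS33. mRpS14 lost its call in 4 of 6 such fits in elav null and in 3 of 7 in the double null.

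mRpS35, another mitochondria-specific head protein, was at 37.8, 37.6 and 23.6 CPM in WT, 17.3, 17.2 and 5.8 CPM for elav null and 9.2, 7.9 and 8.0 CPM for the double null, with WDd at 30.1, 23.6 and 27.9 CPM. The null groups did not overlap WT, and the log2 fold changes were -1.29 ± 0.34 (adjusted p in edgeR 0.018) and -1.98 ± 0.35 (0.00099). The elav null call was lost without WT replicate 1 or 2 (adjusted p in edgeR up to 0.0794). The other head proteins did not pass in either group. mRpS29, the GTP-binding protein known in mammals as DAP3, had log2 fold changes of -0.28 ± 0.19 and -0.51 ± 0.19. mRpS9, which reaches toward the decoded tRNA, had -0.08 ± 0.17 and -0.33 ± 0.17.

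mRpS31 had the highest log2 fold change of all members in elav null. It stood at 33.7, 37.0 and 22.3 CPM in WT, 49.3, 38.6 and 21.4 CPM for elav null, 22.0, 17.8 and 17.1 CPM for the double null, with WDd at 28.0, 20.1 and 26.2 CPM. elav null replicates 1 and 2 lay above all WT libraries and replicate 3 below them. The log2 fold change was 0.24 ± 0.28 for elav null and -0.71 ± 0.28 for the double null, and neither passed.

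Of the 10 proteins of the decoding site and body, 4 fell in elav null, while 6 fell in the double null. The shares of all tested genes that fell were 11.7% and 14.7%. mRpS5, which helps to form the mRNA entry, had a small difference and a small spread: 64.2, 58.6 and 50.9 CPM in WT, 39.7, 37.1 and 38.4 CPM for elav null, 33.0, 39.3 and 34.2 CPM for the double null, with WDd at 66.5, 60.3 and 64.0 CPM. Both null groups lay below WT without overlap, 1.51-fold and 1.63-fold lower (adjusted p in edgeR 0.0126 and 0.00335). Without WT replicate 1 the elav null difference had an adjusted p in edgeR of 0.0534. WDd overlapped WT and had a positive value, 0.13 ± 0.15. mRpS11, at the mRNA exit, and mRpS17, of the body, also fell in both groups. mRpS11 was at 29.4 ± 6.40 CPM in WT, 11.8 ± 4.14 for elav null and 13.8 ± 2.57 for the double null. Without double null replicate 1 its double null call was lost (adjusted p in edgeR 0.0559).

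Among the remaining small subunit proteins, mRpS30 had the largest absolute drop. It stood at 102.1, 97.6 and 73.2 CPM in WT, 44.7, 37.7 and 15.4 CPM for elav null, 24.7, 28.3 and 20.8 CPM for the double null, with WDd at 67.5, 66.1 and 75.6 CPM. No null library overlapped WT or WDd, and the levels were 2.78-fold and 3.70-fold lower than in WT (adjusted p in edgeR 0.00371 and 0.00056). mRpS30 lies on chromosome X, 15786047 to 15788288, and has the longest exons of the family at 2078 bases.

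The library labelled elav null replicate 3 decided the calls of some members. mRpS10, mRpS18A and mRpL32 had 0 counts there, where 3 counts correspond to 0.139 CPM. In elav null replicates 1 and 2, mRpS10 had 1120 and 366 counts, mRpS18A 465 and 308, and mRpL32 535 and 355. In the double null their lowest counts were 457, 244 and 283. The 3 genes had fitted log2 fold changes against WT between -2.15 and -1.70 in the null groups, none of which passed the test, with standard errors of 0.83 to 0.86. Without that library the standard errors were 0.27 to 0.39 and the 3 genes were called lower in both null groups. For mRpL32 the log2 fold changes were then -1.58 ± 0.32 and -1.98 ± 0.28, with adjusted p in edgeR of 0.00391 and 0.00015. They were -1.37 ± 0.31 and -1.68 ± 0.27 for mRpS10 (0.00785 and 0.000442) and -1.49 ± 0.39 and -1.72 ± 0.34 for mRpS18A (0.017 and 0.00186).

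**Figure D3:**
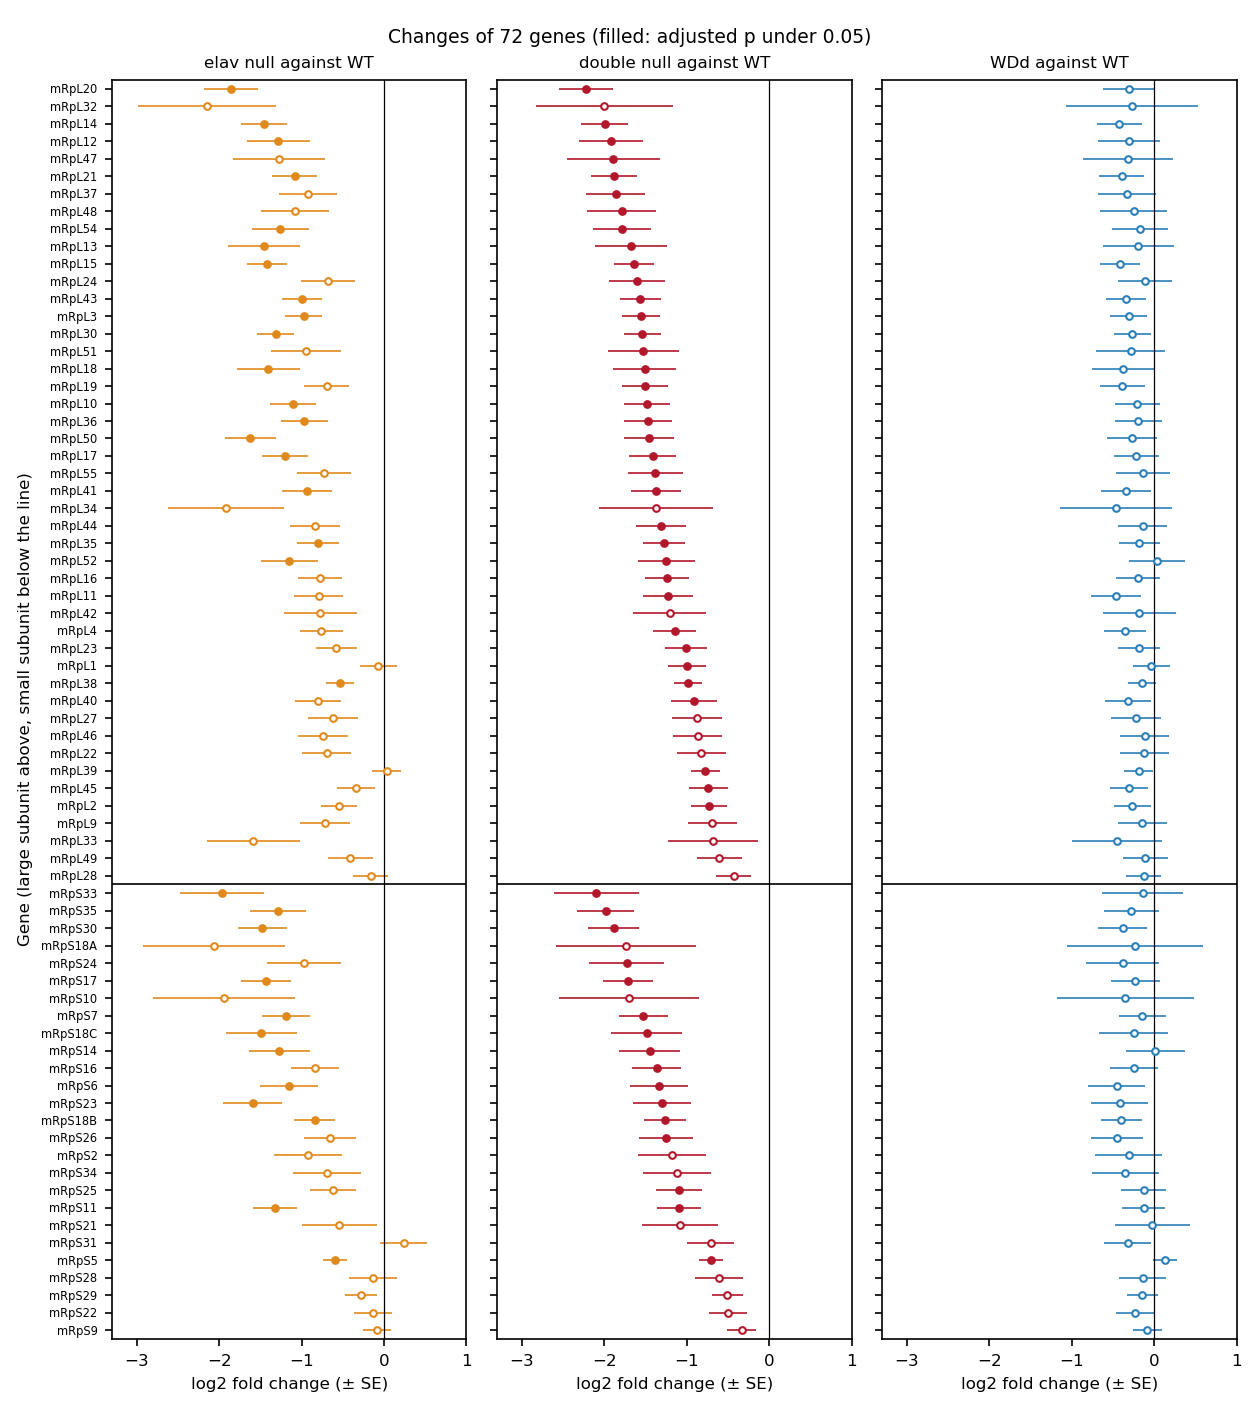
Log2 fold change against WT with its standard error for 72 genes in elav null, the double null and WDd, from a fit of all 12 libraries. Filled points were called at an adjusted p under 0.05, 31, 52 and 0 in the 3 panels. Points shift left from elav null to the double null, and WDd values lie between -0.46 and 0.13.

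Levels can be compared between genes after division by exon length, with less certainty where exons are shared with another gene. Per kilobase of exon, tested members ranged from 13.6 to 85.9 CPM per kb in WT, with medians of 32.3 for the large and 30.4 for the small subunit. Over all libraries mRpL28, mRpL12 and mRpS9 were highest, at 76.2, 50.4 and 43.9 CPM per kb, and apart from mRpL53 the lowest were mRpL21 and mRpS24, at 9.39 and 10.4. The order differed between groups: in WT alone the third highest was mRpL30 at 61.5 CPM per kb and the lowest was mRpS21 at 13.6. Shared exons make some places in this order uncertain. mRpS24 shares 332 of its 600 exonic bases with TBC1d7, mRpS21 228 of 475 with CG8870 and mRpS9 325 of 1293 with ArgRS-m. The median over members was 31.6 CPM per kb in WT, 27.5 in WDd, 16.2 for elav null and 12.1 for the double null.

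Among these extremes the changes differed. mRpL28 stood at 124.0, 99.5 and 78.0 CPM in WT, 109.7, 90.3 and 69.4 CPM for elav null, 81.4, 75.7 and 66.5 CPM for the double null, with WDd at 101.5, 75.6 and 98.9 CPM. All groups overlapped WT, and its log2 fold changes of -0.16 ± 0.21 and -0.43 ± 0.21 in the null groups did not pass. mRpL21, one of the least abundant per kilobase, fell in both, to 6.8, 6.9 and 7.1 CPM in the double null from 31.1, 28.9 and 16.3 CPM in WT (-1.88 ± 0.28, adjusted p in edgeR 0.000302). Its elav null call was lost in 4 of 6 fits without 1 library.

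Members with long exons had smaller median differences. Members with exons of up to 700 bases had a median log2 fold change of -1.15 in elav null (n = 23), those of 701 to 900 bases -1.04 (n = 20), those of 901 to 1200 bases -0.78 (n = 17) and longer ones -0.44 (n = 12). In the double null the medians were -1.38, -1.37, -1.24 and -0.86. Protein-coding genes of at least 5 CPM showed a smaller gradient, from -0.39 to -0.08 for elav null and from -0.52 to -0.18 for the double null. The cytosolic ribosomal proteins, also short, showed none, with medians of 0.10 to 0.19 and 0.18 to 0.24 over the same bands. From the shortest to the longest band, 47.8%, 50.0%, 29.4% and 41.7% of members fell in elav null. In the double null the shares were 73.9%, 75.0%, 70.6% and 66.7%. Among the protein-coding genes they were 17.8% to 30.4% and 24.4% to 30.4%. mRpS30, with the longest exons, fell in both null groups.

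Across the 72 members, Spearman's rho between exon length and log2 fold change was 0.44 in the elav null comparison, 0.24 in that of the double null and 0.06 in WDd. These are correlations across genes within the same libraries, which share depth and normalisation, and genes are not independent replicates. In the same bands of length, members lay below protein-coding genes in every band of both null groups. The part of transcript length in the result was not tested.

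**Figure D4:**
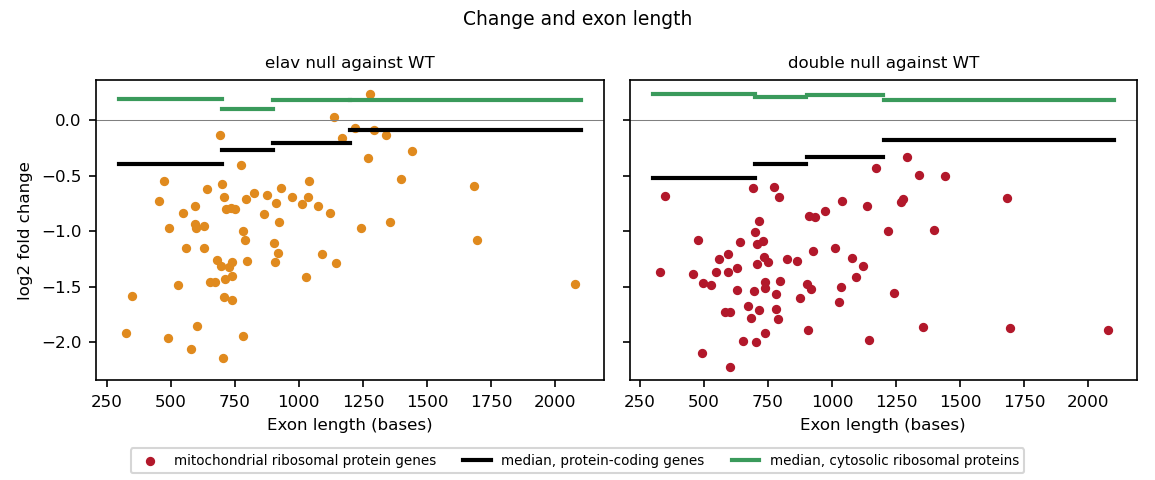
Log2 fold change against WT plotted against exon length in bases for the 72 tested genes, in elav null (left) and the double null (right). Black and green lines are medians of protein-coding genes of at least 5 CPM and of cytosolic ribosomal proteins in the same length bands. Members lie below both lines at most lengths and approach the black line in elav null above 1200 bases, where the medians are -0.44 and -0.08.

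Between the null groups, 0 of 72 members were called in edgeR, as were 0.185% (lower in the double null) and 0.0428% (higher) of all tested genes. At an unadjusted p under 0.05 the count was 10, and DESeq2 called 2 lower. No share of all genes is given beside either count. The median log2 fold change of the double null against elav null was -0.39, with 62 of 72 negative, and for 16 members every double null library lay below every elav null library, against 7.41% of all tested genes. Without elav null replicate 3, 8 of 72 members were called lower, beside 4.94% of all genes tested in that fit. They were mRpS31, mRpL39, mRpS35, mRpL3, mRpL37, mRpS30, mRpL1 and mRpL19. mRpL39, a mitochondria-specific protein related to a tRNA synthetase, had the smallest adjusted p in the fit of 12 libraries, 0.0877 in edgeR, and 0.0115 without that library. It stood at 57.0, 49.0 and 44.4 CPM for elav null and at 29.4, 29.9 and 26.9 CPM for the double null, with 52.8, 56.8 and 37.6 CPM in WT, and the double null lay below all other libraries.

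The mean summed level of WDd lay above that of both null groups, although elav null replicate 1, at 1618 CPM, lay just above WDd replicate 2, at 1603 CPM. Against elav null, 17 of 72 members were higher in WDd and 0 lower, while 11% of all tested genes were called higher and 5.83% lower. The median log2 fold change was 0.64, and for 37 members the groups did not overlap, against 23.8% of all tested genes. The count was 14 without elav null replicate 3, beside 10.9% of all genes tested in that fit. Without WDd replicate 1 or 3 it was 5 and 6 of 72, beside 7.14% and 6.53% of all genes, which is near the share of all genes. In a fit of the 6 libraries compared it was 11, with the share of all genes in that fit not given here.

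Against the double null, 42 of 72 were higher in WDd and 0 lower, beside 14.3% of all tested genes called higher and 6.6% lower, with a median of 1.1. For 62 members the groups did not overlap, against 28.9% of all tested genes. Among single genes, mRpL20 was 2.92-fold higher in WDd than in elav null and 3.76-fold higher than in the double null (adjusted p in edgeR 0.00463 and 0.000922). mRpS5 was 1.65-fold and 1.79-fold higher (0.00371 and 0.00109). The count against the double null was 21 and 25 without WDd replicate 1 or 3, 27 and 24 without double null replicate 2 or 3, and 55 without elav null replicate 3. The shares of all genes called higher in those fits were 9.66%, 9.26%, 10.7%, 9.68% and 17%, in the same order.

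The small subunit proteins S12 and S15 carry other names in flies and are not found by the symbol rule. tko, the S12 protein of the decoding site whose mutants are bang-sensitive, stood at 52.8, 38.1 and 22.6 CPM in WT, 15.2, 14.7 and 13.7 CPM for elav null, 10.8, 7.3 and 11.7 CPM for the double null, with WDd at 35.2, 23.9 and 30.6 CPM. The null groups lay below WT without overlap, by -1.38 ± 0.29 (adjusted p in edgeR 0.00445) and -1.93 ± 0.29 (0.00035). bonsai, the S15 protein, fell by 1.27 and 1.87 on the log2 scale.

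The mitochondrial translation factors followed the ribosomal proteins. Of 9 tested, 4 fell in elav null, while 6 fell in the double null, with medians of -0.92 and -1.37, and 0 were called in WDd. Of all tested genes, 11.7%, 14.7% and 0.135% fell in these groups. mEFTu1, which delivers aminoacyl-tRNA, stood at 197.8, 201.7 and 157.7 CPM in WT, 137.0, 90.5 and 67.0 CPM for elav null, 61.3, 53.3 and 52.3 CPM for the double null, with WDd at 146.5, 131.1 and 150.7 CPM. Both null groups lay below WT and did not overlap each other, and WDd also lay below WT without overlap but was not called (-0.38 ± 0.22). mEFG1, the translocation factor, fell by 1.73 and 1.74 on the log2 scale in elav null and the double null.

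Genes of protein import and mitochondrial chaperones, which bring in and fold the ribosomal proteins of mitochondria, were called lower in 13 of 15 cases in each null group and in 0 in WDd, with medians of -1.21, -1.67 and -0.21. Tom40, the channel of the outer membrane, stood at 217.1, 246.6 and 201.2 CPM in WT, 85.6, 69.6 and 49.5 CPM for elav null, 48.3, 60.8 and 42.9 CPM for the double null, with WDd at 183.6, 189.6 and 200.9 CPM. Its difference from WT was -1.70 ± 0.20 (adjusted p in edgeR 8.51e-05) and -2.13 ± 0.21 (1.58e-05). Tim23, the channel of the inner membrane, fell by 1.52 and 2.04 on the log2 scale. The list also holds Marf, a fusion protein of the outer membrane, with positive values of 0.35 ± 0.17 and 0.34 ± 0.17 that did not pass.

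Genes for the expression and copying of mitochondrial DNA differed less in their medians, with 4 of 12 called lower in each null group and medians of -0.50 and -0.68. Beside them, 11.7% and 14.7% of all tested genes fell in elav null and the double null. bsf, whose mammalian relative LRPPRC stabilises mitochondrial mRNAs, stood at 156.4, 206.9 and 194.2 CPM in WT, 95.1, 76.7 and 103.0 CPM for elav null, 51.1, 40.8 and 41.9 CPM for the double null, with WDd at 130.6, 131.9 and 135.2 CPM. It fell by 1.02 and 2.06 on the log2 scale, and the 4 groups did not overlap. PolrMT, the mitochondrial RNA polymerase, fell by 0.82 and 0.84. mtSSB counted among the 4 in elav null, but it stood at 0.8 CPM or lower in every library.

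The genes whose products work beside mitochondrially made proteins had smaller median differences than the ribosomal proteins. Of 79 nuclear genes of the respiratory chain and ATP synthase, 6 fell in elav null, while 39 fell and 1 rose in the double null, and 0 were called in WDd, with medians of -0.34, -0.77 and -0.10. The elav null count is 7.59% of the list, under the 11.7% of all tested genes that fell, and the double null count is 49.4%, beside 14.7%. Genes on the mitochondrial genome were taken whatever their RNA type. They had medians of 0.06, 0.06 and 0.12 over 22 tested, with values of both signs, most of which did not pass the test. Their log2 fold changes ran from -7.73 to 3.27 in elav null and from -5.64 to 3.48 in the double null. The median absolute values were 1.14 and 0.94, so the medians near 0 do not show steady levels. In elav null 1 was called higher, 1 lower and 20 not, and in the double null 1 was called higher and 21 not. The wide ranges are therefore not read as changes of single mitochondrial mRNAs. Mitochondrial rRNA, which moved with the groups in most libraries, took 2.14% to 3.54% of counts in WT, 0.650%, 9.54% and 10.1% for elav null, 6.20% to 8.55% for the double null, with WDd at 1.95% to 3.61%. With the mitochondrial genome left out of the fit, 30 and 52 members fell in elav null and the double null. The share of all genes in that fit is not given here.

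The cytosolic ribosomal proteins were at 112.4%, 115.7% and 95.3% of the WT mean in elav null, the double null and WDd. Of 89 tested, 2 rose and 1 fell in each null group and 0 were called in WDd, with medians of 0.17, 0.22 and -0.05.

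**Figure D5:**
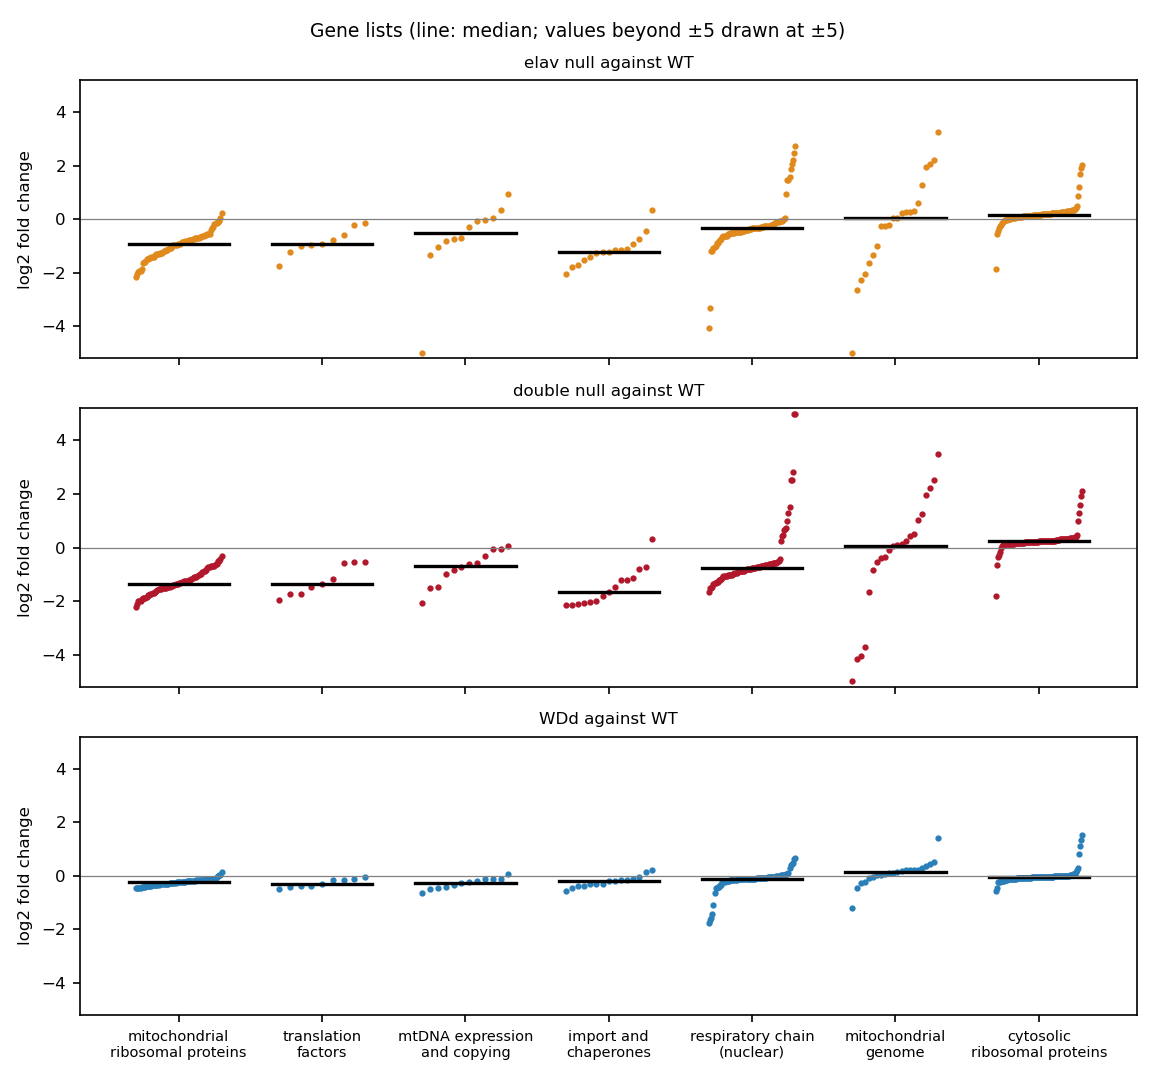
Log2 fold change against WT of every tested gene in 7 lists, sorted within each list, for elav null, the double null and WDd (black line, median of the list). Mitochondrial ribosomal proteins, translation factors and import genes lie mostly below 0 in both null groups, with medians between -1.67 and -0.92, while the cytosolic ribosomal proteins have medians of 0.17 and 0.22.

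Of 4 regulators known for acting on mitochondrial or ribosomal genes, srl, the fly relative of the PGC-1 coactivators, fell in both null groups. It stood at 103.7, 145.1 and 110.2 CPM in WT, 19.3, 19.5 and 29.3 CPM for elav null, 20.7, 19.5 and 26 CPM for the double null, with WDd at 105.6, 117.9 and 124.7 CPM. Every null library lay far below every WT and WDd library (log2 fold change -2.40 ± 0.21 and -2.44 ± 0.21, adjusted p in edgeR 9.95e-06 and 6.66e-06). ewg, the relative of the NRF-1 transcription factor and a known target of ELAV splicing control, rose by 0.74 ± 0.20 and 0.77 ± 0.20 on the log2 scale. Dref and Myc were not called in any comparison with WT.

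Markers of cell types moved with the same groups. The summed level of 10 muscle genes was 25746 to 29919 CPM in WT, 2051 to 11431 for elav null, 1963 to 3850 for the double null, with WDd at 29507 to 32162, with no marker at 0 in any group. The sum of 10 midgut genes was 3457 to 4235 CPM in WT, 7523 to 8645 for elav null, 6926 to 8309 for the double null, with WDd at 3149 to 3833. The sum of 10 neuronal genes was 1447 to 2999, 1387 to 2419, 1246 to 1524 and 1929 to 2555 CPM in the same order, so the embryonic tissue included nervous system in every group. Of these 10, 0 were called in elav null and in WDd, while nSyb, VGlut, ChAT and Snap25 fell in the double null, with log2 fold changes from -4.56 to -1.16 and a median of -0.68 over the list. The share of all tested genes that fell in the double null was 14.7%. The sum of 14 eggshell and yolk genes was 1.73 to 3.94, 15.9 to 671.7, 4.83 to 9.0 and 1.48 to 2.12 CPM, with Cp36, Vm26Aa, Cp15 and Cp19 at 0 in WDd. Of 13 tested, 8 were called higher in elav null, beside 5.99% of all genes tested, and 0 in the double null and WDd. The midgut genes were mixed: 5 of 10 were called higher in each null group, beside 5.99% and 6.68% of all genes tested. Their log2 fold changes ran from -0.12 to 2.80 in elav null and from -0.70 to 3.01 in the double null, with 1 and 2 negative. The muscle sums separated all WT and WDd libraries from all null libraries. The summed CPM of the mitochondrial ribosomal proteins did so for the double null only. On that scale elav null replicate 1, at 1618 CPM, lay above WT replicate 3 (1600 CPM) and WDd replicate 2 (1603 CPM). As a share of cytosolic ribosomal protein counts, all null libraries were separated too, at up to 0.993% against 1.4% or more in WT and WDd. The part of the muscle, midgut, eggshell and neuronal genes in the result was not tested.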

How the data were processed

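The deposited table holds raw read counts per gene, which the authors made from poly(A) RNA of 12 libraries. The submitters' processing notes list the dm6 build, featureCounts 2.0.8, STAR 2.7.11a, DESeq2 1.40.2 and Trim Galore 0.6.7. What each was used for, the strandedness of the counting and how multi-mapped reads were handled are not given in the sources used here. Per the file headers the control columns name elav[null] over FM7, and the labels elav[e5] over FM7.

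All 17561 gene numbers matched the RefSeq table of the same assembly, which gave symbols and positions. Exon lengths came from an Ensembl annotation, in which all 73 members had the same span. Genes of the mitochondrial genome were taken by chromosome. The members and lists were chosen with earlier results of these data known. Lists match by symbol: 10 of 15 translation factor symbols, 15 of 16 for mitochondrial DNA expression and 17 of 20 for import were in the table. waw, SLIRP1, PolG2, mtTFB1 and Tim10 had 0 counts in every library, and Tim13 was below the filter.

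Library totals were 22491041 to 97043662. Genes that passed filterByExpr, 14031, were tested with edgeR 4.0.16 under R 4.3.3 (TMM factors, quasi-likelihood F test, two-sided, group as the only term, 12 libraries, Benjamini-Hochberg). The fit had a common biological coefficient of variation of 0.595 with 5.36 prior degrees of freedom. Standard errors are the absolute log2 fold change over the square root of F. Where a library was left out, the other libraries of all groups stayed in the fit. Alternatives were DESeq2 1.42.0, RLE factors, no filter on low counts, the replicate number as a block, the 6 libraries compared, the mitochondrial genome left out, each library left out, and fits without the 3 libraries with the fewest genes. The fits of other comparisons without elav null replicate 3 were added after seeing the data.

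The genes named are, for each mutant against WT, up to 8 called in each direction by smallest adjusted p, and up to 4 for each pair of mutants. Added were the 6 called in both null groups with the largest mean change, the 3 highest and 3 lowest per kilobase, and members of the role lists. Outside the family, up to 3 called genes a list, direction and comparison were named, with the regulators, elav and fne. mRpL19, mRpL32, mRpL37, mRpL39, mRpS18A, mRpS21, mRpS23, Marf, mtSSB, the 4 neuronal markers and the untested genes were named after their values were seen. A planned count of promoter motifs was not run, and no sequence is shown, since no sequence table was used here.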

Additional observations from a re-analysis of the deposited data

How the results depend on the processing

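Members called higher against WT stayed at 0 in every alternative. The counts called lower in elav null and the double null against WT were 26 and 49 with RLE factors, 27 and 52 with no low-count filter, and 32 and 53 in DESeq2. With only the 6 libraries compared, elav null had 10 and WDd against elav null had 11 higher. DESeq2 called 2 members lower in the double null against elav null. Shares of all genes are not given for these alternatives, so their counts cannot be set against a background. Leaving out each library in turn gave 11 to 40 members lower in elav null, 36 to 62 in the double null and 0 in WDd, each against WT. It gave 0 to 8 lower in the double null against elav null, and for WDd 5 to 21 higher and 0 to 1 lower against elav null, and 21 to 55 higher against the double null. In those fits 7.73% to 11.1% of all genes were lower in elav null and 9.91% to 17.1% in the double null, against WT. For WDd, 6.53% to 10.9% of all genes were higher against elav null and 9.26% to 17% against the double null. The medians of the members ranged from -1.09 to -0.66, -1.54 to -1.07 and -0.46 to -0.01 against WT. The causes were not tested. Called in every such fit were 11 of 31 members in elav null and 32 of 52 in the double null.

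With the replicate number as a block, 29 and 54 members were lower in elav null and the double null and 20 and 42 higher in WDd against them. The share of all genes is not given for that fit either. Over 18 pairs of same-numbered libraries the deviations correlated at -0.24 to 0.24, with 3 pairs over 0.1. Differently numbered libraries spanned -0.28 to 0.30. With 3 libraries a group, these values cannot decide whether the numbers pair the samples. Under RLE factors the median of all genes moved from -0.03 to 0.10 in the double null against WT, and the members' median from -1.35 to -1.20. The count of promoter motifs was not run. The calls of mRpS10, mRpS18A and mRpL32 rested on 1 library with 0 counts, whose depth would have shown levels like those of its group, and 3 libraries a group limit all calls.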
